A study of Mus musculus with 16 samples.

Results

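Smooth muscle contractile genes and the gene of their transcriptional coactivator, Myocd, were examined in the muscle of the mouse colon. The 10 genes, Acta2, Actg2, Myh11, Tagln, Cnn1, Des, Smtn, Mylk, Lmod1 and Myocd, were taken by name from 56748 genes of the deposited table. All 10 had counts in all 16 libraries and passed the filter on low counts in every comparison.

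Bulk RNA-seq had been carried out on the longitudinal muscle dissected together with its nerve plexus (LMMP), in 4 groups of 4 libraries. HSCR mice were homozygous for the Ednrb tm1Ywa allele (Ednrb -/-), which disrupts the endothelin B receptor gene and leaves the distal colon without ganglia. WT mice were their Ednrb +/+ littermates. The mice had a mixed C57BL6/J-129Sv genetic background, were 2 to 4 weeks old and received no treatment named in the labels. In HSCR mice the proximal segment was the ganglionated colon, recognised by its distention, and WT mice gave the matching segment. For 8 libraries the title names the distal colon and the tissue entry the proximal colon, and the titles were followed here. The allele is constitutive, so it is carried by every cell type of the preparation and not by muscle alone. The homogenized layer holds muscle, neurons, glia, interstitial cells, vessels and connective tissue.

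In a smooth muscle cell, myosin pulls on actin filaments that are anchored to dense bodies and to plaques at the membrane. Calcium bound to calmodulin switches on myosin light chain kinase, which phosphorylates the regulatory light chain and starts contraction. Most genes of this machinery are driven by serum response factor, which binds a short DNA motif called the CArG box, and by myocardin, the coactivator that Myocd encodes. Loss of these transcripts is a usual sign that smooth muscle cells have left the contractile state.

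The CArG box has the letters CC, then 6 letters that are A or T, then GG. It was searched on both strands in the 250 bases before every annotated transcript start (GRCm39, GENCODE release M39), because it ties the contractile members to Myocd. An exact box lay in 6 of 57 windows of the members (10.5%) and in 1876 of 168697 windows of all protein-coding genes (1.11%). Windows of 1 gene overlap, so these shares are a description. Exact boxes were found for 5 of the 10 genes, and their sequences follow with 10 bases on each side, the box in capitals, on the strand of the gene.
Acta2: gtgtgttttaCCTAATTAGGaaatgctccc
Actg2, first box: aaaaaaaacaCCTTATATGGtaatattgct
Actg2, second box: cgtcagctggCCTTTTTAGGgactctgttt
Cnn1: agccgccgcgCCTTATAAGGcggccttggg
Mylk: tgacttctgaCCATATATGGgtagtaggca
Tagln, first box: gtgtctttccCCAAATATGGagcctgtgtg
Tagln, second box: agggtcctgcCCATAAAAGGtttttcccgg

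Counted from the first base of the box to the nearest start after it, the Actg2 boxes lay 110 and 73 bases before a start. The Tagln boxes lay 174 and 64 bases, Cnn1 66, Mylk 153 and Acta2 67 bases before one. The distances of the Tagln boxes are to different starts. On the minus strand the first Tagln box (chr9:45847336-45847345) is downstream of the second (chr9:45847459-45847468). The Acta2 box lay at chr19:34231688-34231697, inside the gene and before an alternative start. The Mylk box (chr16:34773275-34773284), the Cnn1 box (chr9:22011422-22011431) and the first Tagln box also lay inside the gene bounds of the deposited table. Near the outer end of Acta2, 121 and 71 bases before another start, lay a pair of boxes in which 1 of the 6 inner letters is G or C.
Acta2, outer box: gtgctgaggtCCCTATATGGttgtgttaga
Acta2, inner box: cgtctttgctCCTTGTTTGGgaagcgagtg

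With 1 such letter allowed, 7 of the 10 genes held a box, in 15 of 57 windows (26.3%) against 7.71% of all windows. Des, Myh11 and Lmod1 had none in these windows, which says only that the letters are not there. A match is not a shown binding site.

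Between 21384372 and 45831881 reads per library were counted on genes, and mitochondrial genes took 4.32% to 49.8% of them, the most in WT proximal library 1. Libraries were compared as CPM, the count of a gene scaled to a common library size, with TMM factors over all 16. Ednrb, the targeted gene, was at 33.9 to 67.7 CPM in WT proximal and at 7.84 to 36.2 CPM in HSCR proximal libraries, and at 12.2 to 40.2 CPM in WT distal ones. HSCR proximal 3 and 4, at 36.2 and 35.8 CPM, exceeded WT proximal 2 at 33.9 CPM and 3 of the 4 WT distal libraries, so Ednrb did not separate the genotypes library by library. It was at 97.0 CPM in the library labelled HSCR distal 1, above every WT library, so this library goes against its label, and at 5.54 to 9.56 CPM in the other HSCR distal libraries. The library labelled HSCR distal 1 also had the highest enteric neuron markers of its group (1378 CPM summed over 12 genes), and the library labelled HSCR proximal 1 had the lowest of its own (87.1 CPM). Whether the labels of these libraries were exchanged was not tested, and both were kept as labelled. HSCR proximal library 2 stood apart in the contractile genes, as given below.

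The contractile genes were among the most abundant transcripts of the tissue, which fits the labelled muscle layer. On the per-length scale of the deposited FPKM values, Actg2 (enteric gamma actin) had a mean level of 9178 FPKM over 16 libraries and Acta2 (alpha smooth muscle actin) 5814 FPKM. Among genes not encoded by mitochondria, Actg2 ranked first in 11 of 16 libraries and Acta2 in 1. Both stood in the top 10 in 15 of 16 libraries, HSCR proximal 2 being the exception at ranks 70 and 48. These actins are closely related, but their sequences were not compared here, and whether reads were split between them with error was not tested.

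Cnn1 (calponin, an actin-binding brake on myosin) had a mean level of 2351 FPKM, Des (desmin, the muscle intermediate filament) 2165 FPKM and Myh11 (the smooth muscle myosin heavy chain) 1366 FPKM. Mylk (myosin light chain kinase) at 363 FPKM and Smtn (smoothelin, an actin-associated protein of contractile cells) at 326 FPKM followed. Neighbours in this order overlapped: Cnn1 ranged from 199 to 4563 FPKM and Des from 120 to 4248 FPKM. Lmod1 (leiomodin, which nucleates actin filaments) had a mean of 86.5 FPKM. Myocd was at 4.14 FPKM with a median rank of 7475.5 among non-mitochondrial genes.

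Of the 10 most abundant non-mitochondrial genes, 4 were members (Actg2, Acta2, Cnn1 and Des) and 3 more belonged to the same machinery. These were Myl9, the regulatory light chain, at 5208 FPKM, Csrp1, a protein of actin bundles, at 2420 FPKM and Tpm2, a tropomyosin, at 2151 FPKM. The other 3 were Rn18s-rs5 at 3626 FPKM, Eef1a1 at 2692 FPKM and Rplp1 at 2305 FPKM, which serve translation. With mitochondrial genes included, 7 of the top 10 places went to mt-Co1, mt-Cytb, mt-Nd1, mt-Nd2, mt-Nd4, mt-Nd5 and mt-Nd6, and the other 3 to Actg2, Acta2 and Myl9. The 9 contractile members without Myocd together took a median of 6.49% of all counts, from 0.571% in HSCR proximal 2 to 9.18% in WT proximal 3.

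**Figure D1:**
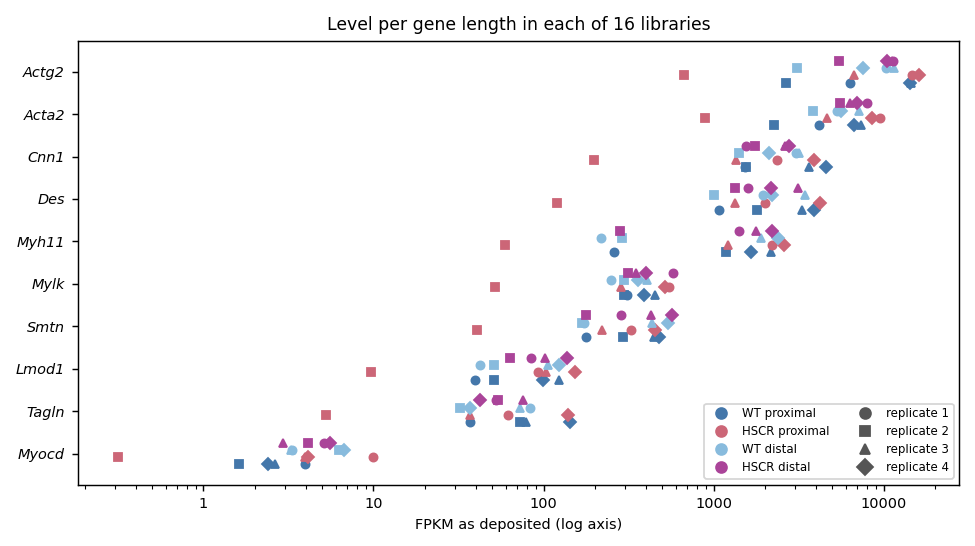
FPKM as deposited (horizontal log axis) of each gene in each of 16 libraries, with genes ordered by their median, colour for the group and shape for the replicate number. Actg2 and Acta2 lie highest and Myocd lowest, and the square of HSCR proximal 2 lies left of all others in every row.

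Tagln (transgelin, or SM22, an actin-binding protein usually plentiful in smooth muscle) had a mean level of 63.9 FPKM, with a median rank of 714, far below Cnn1, a protein of the same calponin family. Even its highest library, at 142 FPKM, was below the lowest of Cnn1 (199 FPKM). Of the 2044 exon bases annotated to Tagln (chr9:45840917-45847356, minus strand), 1364 (66.7%) were shared with genes of the opposite strand, 1241 of them with the long noncoding RNA Gm48529. Cnn1 shared 35.1% of its exon bases with Elof1, Smtn 19.8% with its antisense neighbours and Acta2 9.33% with Stambpl1, and the other members shared 0% to 6.85%. The protocol text names both a stranded and an unstranded kit and the strand setting of the counting is not given in the sources used here, so reads of Tagln and its antisense partner could not be told apart. Gm48529 itself was at 0 to 23.2 CPM. The part of this overlap in the low level of Tagln was not tested.

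Next, the level of each member was followed through the 16 libraries, listed in each sentence from replicate 1 to 4. Fewer muscle cells and less RNA per muscle cell cannot be told apart in such bulk samples. Actins came first. Acta2 (chr19:34218490-34232990) was at 9328, 5028, 16495 and 14839.97 CPM in WT proximal and at 21636, 1947, 10525 and 19223 CPM in HSCR proximal libraries. In the distal colon it was at 11519, 8589, 15936 and 12911 CPM in WT and at 18096, 12024, 14430.1 and 16494 CPM in HSCR libraries. The groups overlapped in both segments, and the HSCR proximal group held both the highest and the lowest of the 16 values. Actg2 (chr6:83489887-83513247) had the widest range of the actins, from 1041 to 25819 CPM, both ends again in HSCR proximal, and it was at 15559.9 ± 4793 CPM (SD, n = 4) in HSCR distal against 12800.5 ± 5781 CPM in WT distal.

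Of the motor, Myh11 (chr16:14012399-14109236) was at 2003, 9027, 16922 and 12785 CPM in WT proximal and at 17386, 450.0, 9502 and 20262 CPM in HSCR proximal libraries. In the distal colon it was at 1639.8, 2229.95, 14648 and 19042 CPM in WT and at 10959, 2117, 13954 and 17966 CPM in HSCR libraries. Its spread was the largest of the contractile members within WT distal, with a coefficient of variation (SD as a share of the mean) of 93.7%, and low and high libraries occurred in all 4 groups. Its kinase, Mylk (chr16:34565580-34822790), was at 3512, 3356, 5149.7 and 4435 CPM in WT proximal and at 6398, 587, 3334 and 5980.1 CPM in HSCR proximal libraries. Distally it was at 2773, 3406, 4628 and 4244 CPM in WT and at 6649, 3491, 4079.6 and 4813 CPM in HSCR libraries. Mylk was the steadiest member in the WT groups, with coefficients of variation of 20.4% proximally and 22.2% distally.

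Thin-filament and cytoskeletal members repeated this picture. Cnn1 (chr9:22010512-22020926) was at 4265, 4248, 10139.6 and 12592 CPM in WT proximal and at 6723, 545, 3842 and 10959.9 CPM in HSCR proximal libraries. Distally Cnn1 was at 8245, 3907, 8826 and 6033 CPM in WT and at 4363, 4725, 7503 and 8137 CPM in HSCR libraries. The HSCR libraries of Cnn1 lay within or below the WT range in each segment, with group ranges that overlapped. Tagln was at 74.3, 146, 160.4 and 285 CPM in WT proximal, at 127, 10.4, 75.2 and 282 CPM in HSCR proximal, at 164, 64.7, 146 and 76.1 CPM in WT distal and at 107, 105, 157 and 89.4 CPM in HSCR distal libraries. Replicate 4 was its highest library in both proximal groups. Over all 16 libraries Des (chr1:75336973-75345223) ranged from 451 to 16299 CPM, Smtn (chr11:3467523-3490612) from 179 to 2670.4 CPM and Lmod1 (chr1:135252545-135295803) from 38.2 to 619 CPM, each lowest in HSCR proximal 2.

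Myocd (chr11:65067387-65160815) was at 25.9, 10.5, 17.3 and 15.5 CPM in WT proximal and at 66.5, 2.01, 26.1 and 26.9 CPM in HSCR proximal libraries. Distally it was at 21.0, 40.7, 21.4 and 44.6 CPM in WT and at 33.6, 26.1, 19.7 and 38.3 CPM in HSCR libraries. WT proximal had the lowest mean, 17.3 ± 6.42 CPM (SD, n = 4), against 30.4 ± 26.7 in HSCR proximal, 31.9 ± 12.5 in WT distal and 29.4 ± 8.20 in HSCR distal. The large SD in HSCR proximal came from its replicates 1 and 2, and without both the other 2 libraries differed by less than 1 CPM, an SD of 0.575. Counts of Myocd were low but not sparse, from 55 in HSCR proximal 2 to 2662 in HSCR proximal 1.

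**Figure D2:**
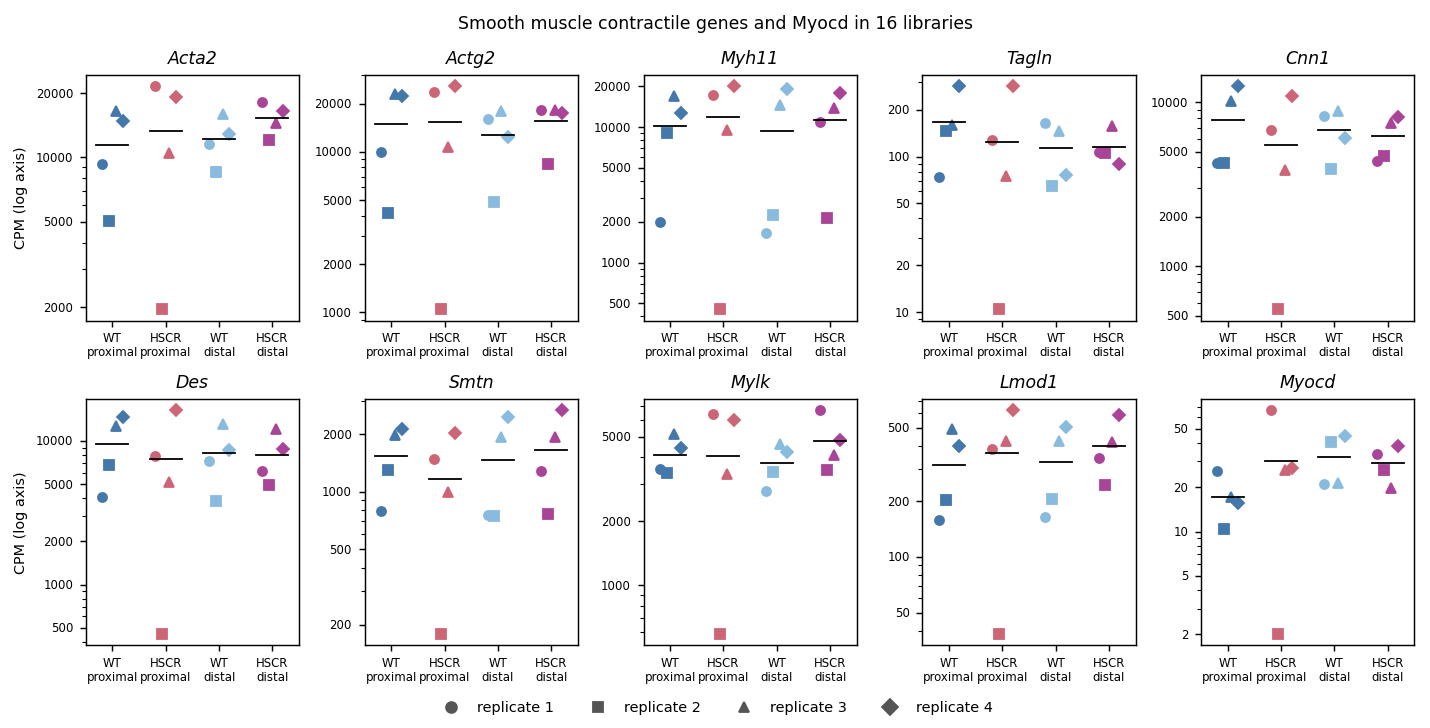
CPM of the 10 genes (vertical log axes, 1 panel per gene) in the 4 groups, with 1 point per library, shape for the replicate number and a black line at the group mean. In every panel the 4 groups overlap and HSCR proximal 2 is the lowest of the 16 points.

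HSCR proximal library 2 held the lowest value of all 10 members. The median of the other 15 libraries was 7.23 times its value for Mylk, the least, and 28.4 times for Myh11, the most. Even the next lowest library was 2.58 (Acta2) to 8.52 (Des) times higher. Across the lists of related genes, described further below, this library was lowest for 25 of 27 genes of dense plaques and intermediate filaments, 11 of 14 of calcium handling and 8 of 12 partners of the contractile filaments. It was lowest for 8 of 14 genes of light chain phosphorylation and 10 of 18 of smooth muscle transcription, against 14.4% of all 18619 genes that passed the filter over 16 libraries. In the transcription list it was instead highest for Mrtfb, a coactivator of serum response factor, and for Klf4 and Klf5, zinc-finger factors that epithelium expresses as well.

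Markers of other cells stood apart in the same library. All 10 epithelial markers were highest there, at 16809 CPM in sum, against 244 to 3299 CPM in the other HSCR proximal libraries and at most 5619 CPM elsewhere. In it 6 of 6 fibroblast, 4 of 6 vascular mural, 3 of 4 endothelial and 2 of 4 mesothelial markers were lowest. There 2 of 3 red blood cell markers were highest. Of all 18619 genes that passed the filter, 2684 were lowest and 3580 highest in this library. Of 12 neuronal markers 0 were highest, or lowest without a tie. Their sum was 126 CPM, against 87.1, 2780 and 1998 CPM in HSCR proximal 1, 3 and 4. Epithelial sums of the groups ran from 46.4 to 3768 CPM in WT proximal, 151 to 2463 CPM in WT distal and 140 to 5619 CPM in HSCR distal, and no epithelial marker was at 0 in any whole group. The part of epithelial RNA in the low contractile values of this library was not tested. Without it, the HSCR proximal mean of Acta2 was 17128 ± 5845 CPM (SD, n = 3) in place of 13333 ± 8966 (n = 4), and that of Myh11 15717 ± 5571 in place of 11899.96 ± 8886.

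**Figure D3:**
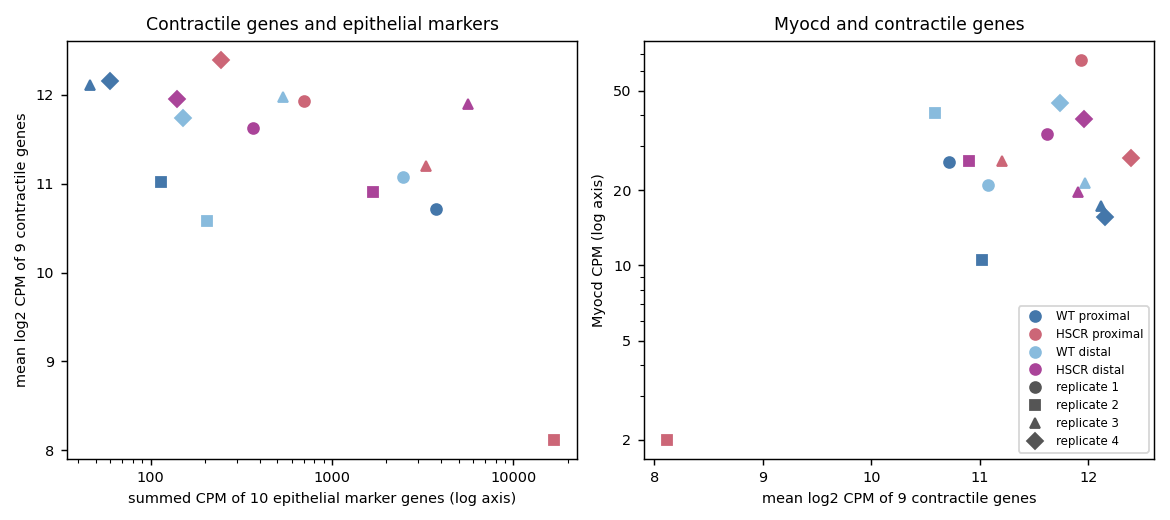
Left, the mean log2 CPM of the 9 contractile genes against the summed CPM of 10 epithelial markers (log axis). Right, Myocd CPM (log axis) against the same mean, with colour for the group and shape for the replicate number. HSCR proximal 2 lies alone at 8.12 on the contractile scale while the other 15 libraries lie between 10.6 and 12.4.

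The members varied together, more closely with that library than without it. Over 16 libraries the 36 pairs of the 9 contractile members had a median Pearson correlation of log2 CPM of 0.86, from 0.67 (Myh11 with Tagln) to 0.97 (Cnn1 with Des). Over the 15 libraries without HSCR proximal 2 the median was 0.65, from 0.28 (Tagln with Lmod1) to 0.91 (Acta2 with Actg2). In the 15 libraries Myh11, Smtn and Lmod1 had correlations of 0.86 to 0.91 with each other, and Cnn1, Des and Tagln of 0.79 to 0.91. Myocd correlated at 0.68 with the mean of the 9 contractile members over 16 libraries and at 0.03 over 15, and at -0.51 with Tagln. These correlations are descriptions of libraries that share tissue composition and depth differences, without a test.

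Of 18609 other genes, the 5 whose log2 CPM over 16 libraries was most like the mean of the contractile members were Pdlim7 (r = 0.97), Tpm1 (0.96), Synpo2 (0.96), Popdc2 (0.96) and Clmp (0.96). Tpm1 is a tropomyosin, Synpo2 an actin-bundling protein of the Z-disc and dense body, and Pdlim7 a linker of the actin cytoskeleton. Without HSCR proximal 2, Pdlim7 kept the first rank with r = 0.92 and Clmp went to rank 52. The genes most like Myocd were Fam168a (0.97), B230219D22Rik (0.96), Ski (0.94), Gnaq (0.94) and Nedd4 (0.92), and none of these 5 was on a muscle list.

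The ratio of Myh11 to Acta2 within a library, a comparison chosen after the values were seen, separated the libraries by replicate number more than by group. In replicates 3 and 4 of all groups it was between 0.862 and 1.47 (8 libraries). In replicates 1 and 2 it ran from 0.142 to 1.80 with a median of 0.245, and 5 of these 8 libraries lay below 0.3. The names of the libraries of replicates 1 and 2 follow 1 scheme in the labels and those of replicates 3 and 4 a pair of others, which split WT libraries by segment, while the batch entry is the same for all 16. Actg2 over Acta2 varied less, from 0.535 to 1.51. Whether the naming schemes mark separate preparations was not tested.

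**Figure D4:**
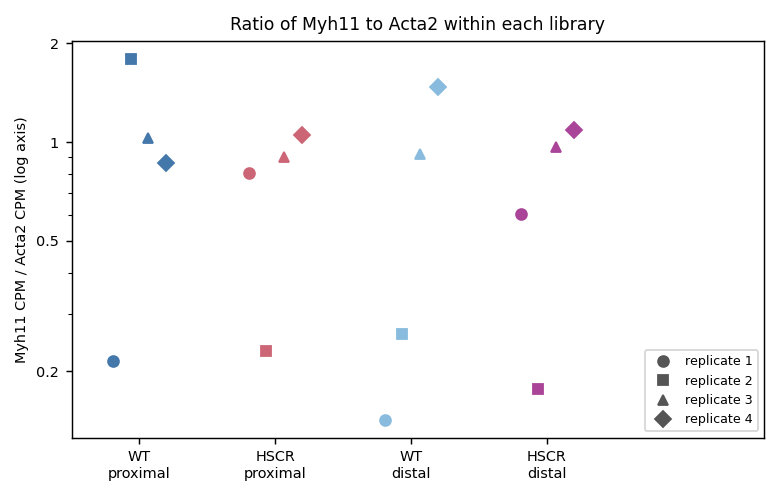
Ratio of Myh11 CPM to Acta2 CPM (vertical log axis) in each library by group, with shape for the replicate number. Triangles and diamonds, replicates 3 and 4, sit between 0.862 and 1.47 in all 4 groups, and circles and squares spread from 0.142 to 1.80.

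The first comparison asked whether the proximal, ganglionated colon of HSCR mice differed from WT. No member passed edgeR's quasi-likelihood test at an adjusted p under 0.05 (0 of 10, against 0% of 16664 genes tested). At an unadjusted p under 0.05 there were 0 of 10, against 6.62% of all genes, and the groups of no member were free of overlap (0 of 10 against 4.86%). DESeq2 called 0 of 10 as well, where it called 1.28% of all genes, and the likelihood ratio test with 4 RUVr factors, the test named in the study's methods, called 0 of 10, where it called 20.8%. The median log2 fold change of the members was -0.01, beside 0.04 over all genes, and 5 of 10 were above 0, against 53.2% of all genes. Values ranged from -0.53 (SE 0.84, edgeR adjusted p = 0.909) for Cnn1 to 0.80 (SE 0.78, edgeR adjusted p = 0.850) for Myocd. The SEs of the members were between 0.67 and 1.03. This median was 0.37 without HSCR proximal 2, -0.28 without the library labelled HSCR proximal 1, -0.32 without HSCR proximal 4, and 0.24 with HSCR proximal 1 and 2 both left out, an alternative chosen after seeing the data. The difference of Myocd was 1.19 without HSCR proximal 2 and 0.08 without the library labelled HSCR proximal 1. That of Cnn1 was -0.14 without HSCR proximal 2, -1.11 without HSCR proximal 4 and -0.92 with RUVr.

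In the distal colon, aganglionic in HSCR, 0 of 10 members passed (edgeR, 0% of 17059 genes), 0 of 10 at an unadjusted p under 0.05 (2.64% of all genes) and 0 of 10 had groups without overlap (1.82%). DESeq2 called 0 of 10 (0.23% of all genes). The likelihood ratio test with RUVr called Myh11 alone, 0.53 higher in HSCR on the log2 scale (SE 0.18, adjusted p = 0.0457), where it called 9.05% of all genes. Over the 16 alternatives tried the log2 fold change of Myh11 ran from -0.16 to 0.82 and its adjusted p from 0.0457 to 1.00. The median log2 fold change of the members was 0.18, beside 0.04 over all genes, with 6 of 10 above 0 (53.9% of all genes), from -0.16 (SE 0.40) for Cnn1 to 0.32 (SE 0.35) for Mylk. Without the library labelled HSCR distal 1, Mylk was 0.10 higher and the median was 0.13. The median ran from -0.07 without WT distal 2 to 0.37 without WT distal 3.

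The distal against the proximal colon of WT mice gave the largest difference of any member. Myocd was 0.91 higher in distal colon on the log2 scale (SE 0.38), with an unadjusted p = 0.0378 and an adjusted p = 0.906 from edgeR, and an exact two-sided permutation test of the 4 against 4 libraries gave p = 0.0857, where the smallest possible is 0.0286. It was the 1 member of 10 at an unadjusted p under 0.05, where 5.23% of all genes were, and the groups overlapped, since WT proximal 1 at 25.9 CPM exceeded WT distal 1 and 3. The difference was 0.81 within replicates 1 and 2 and 0.90 within replicates 3 and 4, but in WT replicates 3 and 4 the proximal libraries follow 1 naming scheme and the distal ones another, so there the scheme and the segment cannot be told apart. Markers of other cells also differed between these groups, in opposite directions. Cardiac muscle markers (5 genes summed) rose from 12.1 to 23.0 CPM in WT proximal to 108 to 244 CPM in WT distal libraries. Vascular mural cell markers (6 genes summed) went the other way, at 1282 to 1915 CPM proximally and 402 to 1134 CPM distally. These sums were picked from 14 marker lists because their groups did not overlap, which held for 4.36% of single genes tested. In the cardiac list, Myh6, Tnni3 and Nppa reached at most 5.52, 2.80 and 0.915 CPM in any library. Its WT distal sums therefore rested mainly on Tnnt2 and Actc1, which does not show that cardiac cells were present. The part of the cells behind either list in the difference of Myocd was not tested. With RUVr it passed at 0.82 (adjusted p = 0.0110), where 19.2% of all genes were called, and over 16 alternatives the adjusted p ran from 0.0110 to 1.00. By edgeR 0 of 10 members were called (0.0181% of 16566 genes) and DESeq2 called 0 of 10 (0.368%). The other members had a lowest value of -0.53 (SE 0.45) for Tagln, and the median was -0.10 beside 0.03 over all genes, with 3 of 10 above 0 (51.7% of all genes). No member had groups without overlap (0 of 10 against 4.36%).

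Between the segments of HSCR mice, 0 of 10 members passed (edgeR, 0% of 17086 genes, 0 of 10 at an unadjusted p under 0.05 against 1.49%), and 0 of 10 had groups without overlap (1.32%). DESeq2 called 0 of 10 (0.0134%) and RUVr 0 of 10 (2.1%). The median was 0.07 beside -0.04 over all genes, with 6 of 10 above 0 (47.1%), from -0.16 (SE 0.76) for Tagln to 0.46 (SE 0.70) for Smtn, which was 0.10 without HSCR proximal 2 and 0.88 without HSCR proximal 4, and Myocd was at -0.07 (SE 0.77). Without HSCR proximal 2 the median was -0.32 and the difference of Myocd -0.46. Without the library labelled HSCR proximal 1 Myocd was at 0.65, and without HSCR proximal 4 the median was 0.45. Leaving out the library labelled HSCR distal 1 gave a median of 0.02.

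A model of all 16 libraries asked whether the HSCR effect was unequal in the proximal and distal colon. No member passed (edgeR, 0 of 10 against 0% of 18619 genes, and 0 of 10 at an unadjusted p under 0.05 against 1.44%). DESeq2 called 0 of 10 (0.0281%) and RUVr 0 of 10 (1.68%). The difference of differences, distal minus proximal, was -0.93 (SE 0.90) for Myocd and 0.58 (SE 0.88) for Smtn, with 9 of 10 above 0 (46.7% of all genes). Myocd was at -0.21 without the library labelled HSCR proximal 1 and at -1.32 without HSCR proximal 2, and Smtn at 0.22 without HSCR proximal 2 and 0.98 without HSCR proximal 4. The median was 0.28, and -0.11 without HSCR proximal 2. The 4 comparisons share groups in pairs, so their values are not independent of each other. Each p-value sets a difference between groups against the spread between these libraries. The study names 4 mice per group but the labels do not state that a proximal and a distal library came from 1 animal. Library names of replicates 1 and 2 carry a number that is the same in both segments and both genotypes. What that number stands for is not given, and whether it marks an animal or a litter was not tested.

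**Figure D5:**
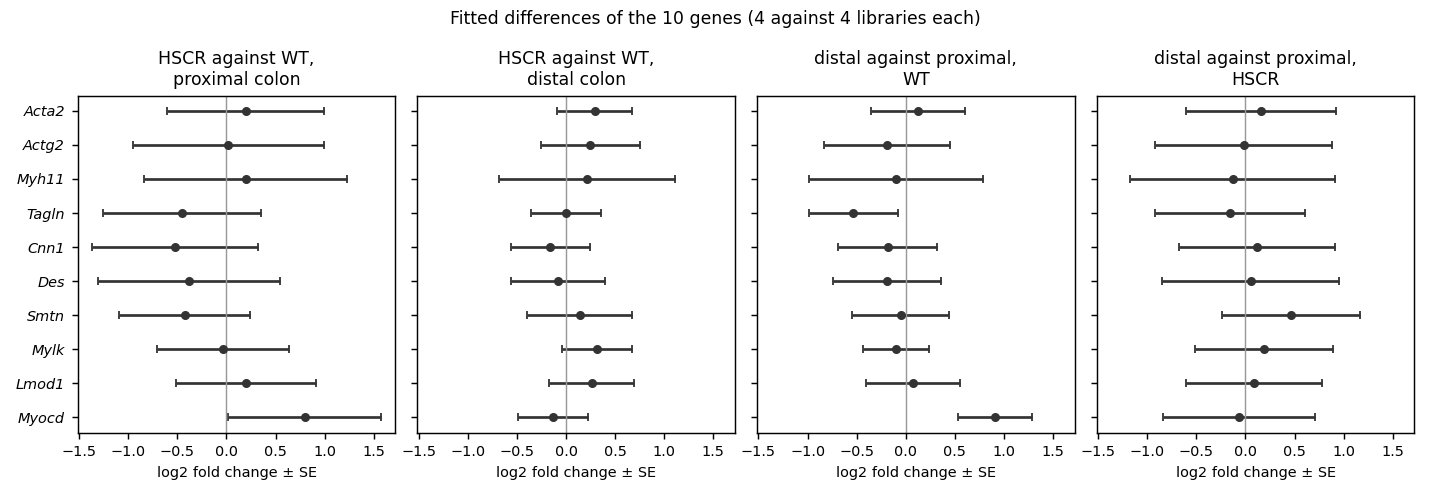
Fitted log2 fold change of the 10 genes (points) with its standard error (bars) in the 4 comparisons, each of 4 against 4 libraries, with the first group named minus the second. The bars are widest where HSCR proximal libraries enter, 0.67 to 1.03 in the proximal comparison, and Myocd in WT is the point farthest from 0.

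Within replicates 1 and 2, and within 3 and 4, the median difference of mean log2 CPM of the 9 contractile members was -0.82 and -0.44 in the proximal comparison and 0.49 and 0.10 in the distal one. Between segments it was 0.01 and -0.13 in WT and 1.25 and 0.12 in HSCR. In the proximal comparison the fitted median and these means differed in size. For Cnn1 they were -1.15 and -0.80. The values of replicates 1 and 2 that hold HSCR proximal libraries include HSCR proximal 2. Without it, an alternative chosen after seeing the data, the medians were 0.90 in the proximal comparison and -0.55 between HSCR segments, and Cnn1 was at 0.66 in the proximal comparison, each resting on the single library labelled HSCR proximal 1. Replicates 3 and 4 hold more than 1 naming scheme.

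Genes that work with the members, 85 in 5 lists, gave no call in either direction in any of the 4 comparisons. The 12 partners of the contractile filaments, with Myl9, Tpm2 and Actb the most abundant, had medians of -0.08 and 0.07 for HSCR against WT in proximal and distal colon. The 27 genes of dense plaques and intermediate filaments, led by Csrp1, Flna (filamin) and Fhl1, had medians of 0.12 and 0.03. The 14 genes of light chain phosphorylation, led by Calm2, Calm3 (calmodulins) and Ppp1r14a (an inhibitor of myosin phosphatase), had medians of -0.09 and -0.01. The 14 genes of calcium handling, led by Atp2a2 (the pump of the sarcoplasmic reticulum), Slmap and Atp2b4 (a pump of the plasma membrane), had medians of 0.17 and 0.21. The background over all genes was 0.04 in both.

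Of 18 genes of smooth muscle transcription 17 were tested, with Srf, Foxf1 and Klf4 the most abundant at 60.0, 58.6 and 32.9 FPKM. For HSCR against WT their medians were 0.32 in proximal and 0.15 in distal colon, beside 0.04 over all genes. Above 0 were 15 of 17 proximally and 11 of 17 distally, against 53.2% and 53.9% of all genes. At an unadjusted p under 0.05 (edgeR) were 6.62% and 2.64% of all genes in these comparisons, and none of the 17. In WT distal against proximal colon their median log2 fold change was 0.47 beside 0.03 over all genes, 14 of 17 were above 0 against 51.7% of all genes, and 5 of 17 were at an unadjusted p under 0.05 where 5.23% of all genes were. None of the 17 passed after adjustment. The 5, of which Tead1, Mrtfa and Gata6 were named after their values were seen, were picked by this p and had the same direction as Myocd. Nkx3-2 (-0.79), Elk3 (-0.16) and Foxf2 (-0.07) went the other way. As for Myocd, naming scheme and segment cannot be told apart in WT replicates 3 and 4. Srf, serum response factor itself, was at 143 CPM in WT proximal and 215 CPM in WT distal, a difference of 0.61 (SE 0.25). Mrtfa, a coactivator of Srf regulated by actin, was 0.87 (SE 0.28) and Tead1, a partner factor of smooth muscle genes, 0.87 (SE 0.25) higher in distal colon. Klf4, a zinc-finger repressor of contractile genes, was 1.89 (SE 0.72) and Gata6, a factor of visceral smooth muscle, 1.92 (SE 0.63) higher on the same log2 scale. The adjusted p of each was 0.906 by edgeR. Mitochondrial genes took 7.31% to 49.8% of the counts in WT proximal and 4.32% to 23.7% in WT distal libraries, and their part in this difference was not tested.

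Muscle of other kinds was checked because it shares transcripts with smooth muscle. Skeletal muscle markers summed to 2501 CPM in the library labelled HSCR proximal 1, 1341 CPM in WT distal 1 and 1555 CPM in HSCR distal 2, and to at most 295 CPM in every other library, with Tnnc2 at 0 in all of them. In the library labelled HSCR proximal 1, which had the highest Acta2 and Myocd of the series, cardiac muscle markers summed to 661 CPM against 5.11 to 48.1 CPM in the other HSCR proximal libraries. They were at 12.1 to 23.0 CPM in WT proximal, 108 to 244 CPM in WT distal and 55.8 to 488 CPM in HSCR distal libraries. Vascular mural cell markers were between 1282 and 1915 CPM in WT proximal, 232 and 4332 CPM in HSCR proximal, 402 and 1134 CPM in WT distal and 406 and 4333 CPM in HSCR distal libraries. In the library labelled HSCR proximal 1 the cardiac sum came mainly from Actc1 (433 CPM) and Tnnt2 (224 CPM). Myh6, Tnni3 and Nppa were at 1.92, 0.574 and 0.350 CPM there, so this sum does not show cardiac cells. The part of the cells behind these markers in the levels of the members was not tested.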

How the data were processed

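RNA of 16 LMMP samples had been sequenced. The authors aligned the reads with HISAT2 2.2.1 to the mm39 build and assigned them to genes with featureCounts 2.0.6, using a GENCODE gene model, per the methods and the submitters' processing notes. The deposited counts are whole numbers without normalization. The deposited FPKM values were made by the authors from the counts and gene lengths, with 1 constant per library, and were used only to compare levels between genes. The authors' fold changes and p-values in the table were not used.

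Libraries were grouped by title. Each pair of groups was fitted alone with edgeR 4.0.16 (filterByExpr, TMM, quasi-likelihood test) over all genes that passed the filter, and the interaction over 16 libraries, with Benjamini-Hochberg adjustment and a threshold of 0.05. CPM were scaled by TMM over 16 libraries, with a prior of 0.5 CPM on the log2 scale. The SE of a log2 fold change was computed from its F statistic. The biological coefficient of variation was 0.700 to 0.740 in the pairwise fits, so the spread between libraries limits precision more than depth. The procedure was tested on simulated data of the proximal comparison, over 16664 genes. At a dispersion of 0.05 it recovered 197 of 197 genes given a log2 difference of 2, with 6 false calls, and at a dispersion of 0.5 it recovered 0 of 198. The dispersion is the square of the biological coefficient of variation, 0.715 in the proximal fit, so 0.5 is close to these data. At such a spread the lack of calls cannot show that the members were unchanged.

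The genes named were all members, the 3 most abundant genes of each list, the 10 most abundant genes, the 5 genes most like each pattern, and markers that move with a result. The members and lists were chosen with earlier results of these data known. Alternatives were DESeq2 1.42.0, the likelihood ratio test with 4 RUVr factors, upper quartile scaling, no filter, mitochondrial genes left out, 1 fit of all libraries, a replicate block, a term for the naming scheme (replicates 1 and 2 against 3 and 4), each library left out, and, chosen after seeing the data, HSCR proximal libraries 1 and 2 both left out, and HSCR proximal 2 left out of the replicate 1 and 2 values. Same-numbered samples of compared groups correlated from -0.24 to 0.60 in their deviations, not all above 0.1 in any comparison, so the numbers were not taken as pairs. R 4.3.3, Python 3.11.15 and matplotlib 3.10.9 were used.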

Additional observations from a re-analysis of the deposited data

Results flagged for a closer look

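In groups of 4 libraries, 104 sets of values were searched for a single library far from the other 3, and 11 were found. Each member and each marker list in each group was among the sets. For normal, independent values about 1 in 20 would be found. These sets share libraries and are not independent, so the count is not read against that rate. Of the members only Actg2 was among them, at 8396 CPM in HSCR distal 2 against 17382 to 18236 CPM in the other HSCR distal libraries. The contractile values of HSCR proximal 2 were not among them, because the other 3 libraries of its group spread widely.

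The other 10 were sums of markers of other cells. Skeletal muscle markers stood apart in the library labelled HSCR proximal 1 (2501 CPM), in WT distal 1 (1341 CPM) and in HSCR distal 2 (1555 CPM), and cardiac muscle markers in the library labelled HSCR proximal 1 (661 CPM). Enteric neuron markers stood apart in the library labelled HSCR distal 1 (1378 CPM). Epithelial markers did so in WT proximal 1 (3768 CPM) and WT distal 1 (2463 CPM). Markers of B and plasma cells stood apart in HSCR proximal 2 (43.8 CPM) and HSCR distal 2 (34.1 CPM), and those of red blood cells in HSCR proximal 2 (678 CPM). Their part in the levels of the contractile genes was not tested.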

How the results depend on the processing

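No member was called under DESeq2, upper quartile scaling, no filter, mitochondrial genes left out, 1 fit of all libraries, the term for the naming scheme or the replicate block. The likelihood ratio test with 4 RUVr factors called 1 member in the distal colon (Myh11) and 1 between WT segments (Myocd, 0.82), and the cause was not tested. Between HSCR segments, Myocd reversed to 0.60 (RUVr), 0.49 (replicate block) and 0.11 (HSCR proximal 1 and 2 both left out), and Tagln to 0.71 (RUVr), 0.54 (replicate block) and 0.0075 (naming scheme). With the replicate block, although whether the numbers pair the samples is not known, the median of the members was -0.44 in the proximal colon, 0.26 in the distal colon, -0.09 between WT segments, 0.57 between HSCR segments and 0.58 in the interaction. With RUVr it was -0.40, 0.21, -0.10, 0.65 and 0.64 in the same order.

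With each library left out in turn, the number of members called stayed at 0. The median ran from -0.32 to 0.37 (proximal), -0.07 to 0.37 (distal), -0.30 to 0.12 (WT segments), -0.32 to 0.45 (HSCR segments) and -0.11 to 0.60 (interaction). Cnn1 ran from -0.37 to 0.020 and Myocd from -0.32 to 0.082 in the distal colon, and between HSCR segments Myocd from -0.46 to 0.65 and Tagln from -0.55 to 0.67. Over all genes, calls went from 0 to 244 (DESeq2) and 3462 (RUVr) in the proximal colon, 0 to 50 and 1544 in the distal colon, 3 to 73 and 3186 between WT segments, 0 to 4 and 358 between HSCR segments and 0 to 9 and 312 in the interaction. The term for the naming scheme gave 4 calls in the proximal colon, and between WT segments 1 fit of all libraries gave 0 and the replicate block 1.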
